A study of Mus musculus with 3 samples.

Results

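The genes examined here write, keep and remove DNA methylation in the mouse embryo at the onset of gastrulation. They were chosen by gene symbol and comprise 10 of the 23421 genes in the expression table. *Dnmt1*, *Dnmt3a*, *Dnmt3b* and *Dnmt3l* belong to the DNA methyltransferase (DNMT) family, *Uhrf1* encodes the partner that brings DNMT1 to newly replicated DNA, *Tet1*, *Tet2* and *Tet3* encode the TET dioxygenases, *Tdg* encodes a DNA glycosylase and *Zfp57* encodes a zinc finger protein that guards imprints. RNA was sequenced from 1 library of each of 3 genotypes: wild-type (WT), heterozygous tw18/+ and homozygous tw18/tw18. All embryos were collected at embryonic day (E) 6.5 from matings of tw18/+ mice of the strain 129/SvEv by the labels. The study, however, describes the genetic background of its embryos as not inbred. Among embryos stained for marker genes at E6.5, it also describes the mutants as slightly younger. The tw18/tw18 library may therefore differ in stage from the others, which was not tested. tw18 is a t haplotype, a variant region of mouse chromosome 17, with a recessive lethal deletion. By the study, the deletion removes many genes, among them *Ppp2r1a*, the gene of a scaffold subunit of the phosphatase PP2A. The study traced the lethality to the loss of *Ppp2r1a*. The labels call the tissue epiblast, whereas the methods of the study describe the embryo proper, in which visceral endoderm still surrounds the epiblast. How many embryos each library holds is not stated in the sources used here.

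DNA methylation in mammals is placed on cytosines that precede guanines (CpG). DNMT3A and DNMT3B methylate unmodified DNA with the help of the inactive family member DNMT3L, and DNMT1 with UHRF1 copies the marks to the new strand at replication. TET enzymes oxidise the methyl group, and TDG excises the later oxidation products so that base excision repair can restore an unmodified cytosine. The genome of the embryo loses most of its methylation after fertilisation and regains it around implantation, when *Dnmt3b* is the most active of the de novo genes in the epiblast, and ZFP57 with its corepressor TRIM28 keeps the methylation of imprinted loci through this wave.

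Values are FPKM, fragment counts scaled by transcript length and by library size, and can be compared between genes because of the first scaling. A gene was called higher or lower when the log2 ratio of its FPKM in a pair of libraries was at least 1 in either direction and the higher value was at least 1. There are no replicates, so no difference was tested, and each ratio compares libraries and not genotypes. Intervals given below are 95% intervals for counting error, built on the number of fragments estimated from the FPKM steps, and do not cover the spread between embryos. In WT, tw18/+ and tw18/tw18 the estimated depth was 14400000, 20700000 and 20200000 fragments. *Ppp2r1a*, the check of the genotypes, had FPKM of 146 in WT, 81.7 in tw18/+ and 12.8 in tw18/tw18, in the order of its gene copies but not at 0 in the homozygous library. None of the 12 epiblast and 13 visceral endoderm markers was at 0 in any library.

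The promoters of the 3 genes that passed the threshold between tw18/tw18 and WT are shown first, because the density of CpG, the substrate of these enzymes, sets them apart from each other. Each line holds the 250 bases before a RefSeq transcription start in GRCm38.p6, written 5′ to 3′ on the strand of the gene, with every CpG in capitals.
Dnmt3b, chr2:153649199-153649448, plus strand: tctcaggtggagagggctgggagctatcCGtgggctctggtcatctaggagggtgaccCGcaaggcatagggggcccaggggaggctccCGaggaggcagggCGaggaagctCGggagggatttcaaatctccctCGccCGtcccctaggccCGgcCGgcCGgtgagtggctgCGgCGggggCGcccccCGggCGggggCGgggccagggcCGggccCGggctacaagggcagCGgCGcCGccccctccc
Tet2, chr3:133544391-133544640, minus strand: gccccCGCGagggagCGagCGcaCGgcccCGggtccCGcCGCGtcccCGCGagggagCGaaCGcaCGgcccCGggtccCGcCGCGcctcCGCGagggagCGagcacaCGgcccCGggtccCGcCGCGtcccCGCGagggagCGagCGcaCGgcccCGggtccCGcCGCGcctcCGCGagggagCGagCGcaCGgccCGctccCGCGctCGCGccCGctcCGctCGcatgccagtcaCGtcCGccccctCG
Zfp57, chr17:37002275-37002524, plus strand, the start shared by the most transcripts: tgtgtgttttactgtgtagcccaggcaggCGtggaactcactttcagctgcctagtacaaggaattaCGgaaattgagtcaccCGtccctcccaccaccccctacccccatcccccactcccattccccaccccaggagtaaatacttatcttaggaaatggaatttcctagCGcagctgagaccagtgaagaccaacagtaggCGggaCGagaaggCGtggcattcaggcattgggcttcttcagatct

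All 10 genes matched the RefSeq promoter set of 32851 windows, in which the median was 6 CpG and 52.4% G or C. The *Tet2* window held 51 CpG and was 83.6% G or C, and 99.9% of all promoters held fewer CpG. The *Dnmt3b* window held 21 CpG, more than in 83.7% of promoters, and the *Zfp57* window held 7, close to the median promoter. Outside these 3 genes, the richest windows of each gene held 40 CpG for *Dnmt3a*, 30 for *Uhrf1*, 26 for *Dnmt1*, 19 for *Tdg*, 17 for *Tet3*, 15 for *Tet1* and 5 for *Dnmt3l*. *Zfp57* and *Dnmt3l* were thus the CpG-poor members. DNA methylation itself was not measured in this experiment.

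Windows were also searched on both strands for short motifs. Several of the 10 genes have more than 1 window, whereas the shares of all promoters are per window, so genes and shares are not on the same footing. The E2F-type motif TTTCGCGC lay in windows of *Dnmt1* and *Uhrf1*, the maintenance pair, and in 0.256% of all promoters. It is shown in capitals with 16 bases on either side, on the strand of the gene, so that the *Dnmt1* match reads as the reverse complement.
Dnmt1, chr9:20952819-20952858, minus strand: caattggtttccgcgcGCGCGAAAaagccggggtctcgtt
Uhrf1, chr17:56304112-56304151, plus strand: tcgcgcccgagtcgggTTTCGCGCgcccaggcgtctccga
The other E2F-type motifs TTTCCCGC (0.895% of all promoters) and TTTGGCGC (0.417%) were in no window of the 10 genes. TGCCGC, the motif that ZFP57 reads when methylated, lay in windows of *Dnmt3a* and *Tet3* and in 8.68% of all promoters. CCAAT lay in windows of *Dnmt1*, *Uhrf1*, *Tet3*, *Tdg* and *Zfp57* and in 33.9% of all promoters, and TATAAA lay in an upstream window of *Zfp57* and in 12.4% of all promoters. No binding was measured, and these matches describe the letters only.

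In the WT library the summed FPKM of the 4 DNMT genes was 823, beside 37.3 for the 3 TET genes. *Dnmt3b* alone made up 87.4% of the DNMT sum, and *Dnmt3l* was below *Tet1*. The order of FPKM was *Dnmt3b*, *Uhrf1*, *Dnmt1*, *Dnmt3a*, *Tdg*, *Tet1*, *Zfp57*, *Tet3*, *Dnmt3l* and *Tet2*. The counting intervals of *Dnmt3a* and *Tdg* overlapped, as did those of *Zfp57* and *Tet3* and those of *Tet3* and *Dnmt3l*, whereas all other neighbours in this order were separate. The tw18/+ library had the same first 3 genes, followed by *Tdg*, *Tet1*, *Zfp57*, *Tet3*, *Dnmt3l* and *Tet2* with no overlap between neighbours. In the tw18/tw18 library *Dnmt3l* stood above *Tet3*, and overlaps joined *Dnmt3a* to *Tet1*, *Tet1* to *Zfp57* and *Tet3* to *Tet2*.

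**Figure D1:**
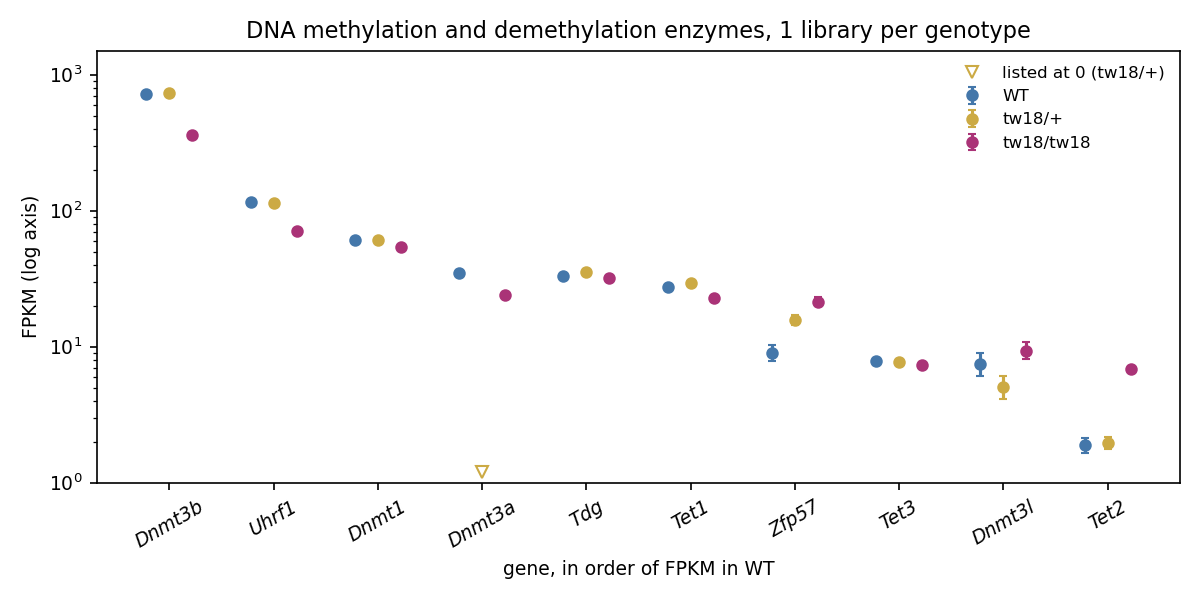
FPKM on a log axis of the 10 genes in the WT, tw18/+ and tw18/tw18 libraries, 1 library per genotype, with bars for the 95% counting interval where it exceeds the point. *Dnmt3b* is highest at 719, 733 and 359, *Tet2* is near 1.9 in the first pair of libraries and 6.84 in tw18/tw18, and the open triangle marks *Dnmt3a*, listed at 0 in tw18/+.

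Between tw18/tw18 and WT, *Tet2* and *Zfp57* were higher and *Dnmt3b* was lower, 3 of the 10 genes. Over all 12625 genes with a ratio, 13.8% were higher and 6.42% lower by the same rule, so that 2 of 10 higher and 1 of 10 lower are near the background. The median log2 ratio of the 10 genes was −0.13 beside −0.02 for all genes, and 7 of the 10 ratios were below 0. Between tw18/+ and WT none of the 9 genes with a ratio passed the threshold, where 4.0% of 12281 genes were higher and 4.66% lower. Between tw18/tw18 and tw18/+, *Tet2* was higher and *Dnmt3b* lower among 9 genes, with 14.3% of 12703 genes higher and 5.30% lower. The comparisons share libraries and are not independent of each other.

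**Figure D2:**
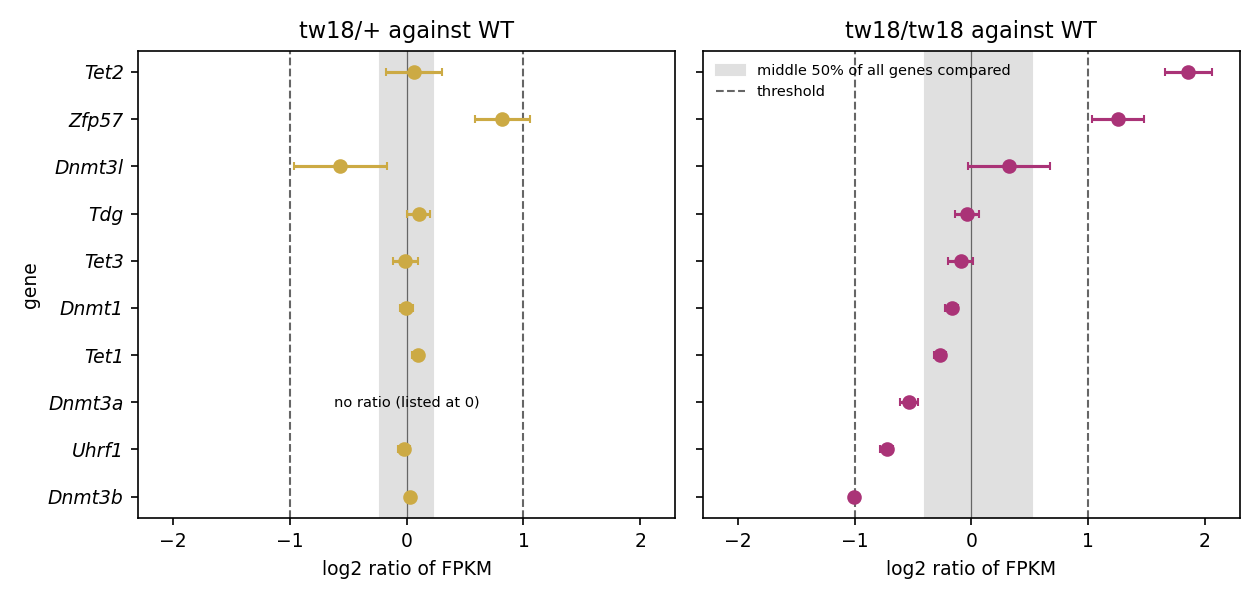
Log2 ratio of FPKM for each gene in tw18/+ against WT (left) and tw18/tw18 against WT (right), with 95% counting intervals, the threshold of 1 dashed and the middle 50% of all genes in grey. On the right *Tet2* and *Zfp57* lie past 1 and *Dnmt3b* lies on −1, while on the left no gene passes and *Zfp57* is farthest from 0.

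*Dnmt3b*, which encodes the main de novo methyltransferase of the post-implantation epiblast, was the most abundant of the 10 genes in every library. Its FPKM was 719 in WT, 733 in tw18/+ and 359 in tw18/tw18. WT and tw18/+ were level, and the tw18/tw18 library alone was low. It ranked 96, 97 and 136 among all genes of the WT, tw18/+ and tw18/tw18 libraries, so it stayed among the most abundant messages. The log2 ratio of tw18/tw18 to WT was −1.0005 (−1.02 to −0.98), a linear ratio of 0.4998, and that of tw18/tw18 to tw18/+ was −1.03 (−1.05 to −1.01). The WT comparison lay on the threshold, and the call ended with a pseudocount of 1 and with centring or rescaling of the libraries, and the call against tw18/+ ended with centring or rescaling. Of the annotated transcript sequence of *Dnmt3b*, at chr2:153649450-153687730 on the plus strand, 11.5% in 50-base words also occurs in *Dnmt3c*, its germline paralogue, which is not a row of the table.

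Markers of the epiblast were lower in the same library. Their summed FPKM over 12 genes was 1559 in WT, 1727 in tw18/+ and 841 in tw18/tw18, and 4 of 12, *Pou5f1*, *Sox2*, *Tdgf1* and *Nanog*, were lower in tw18/tw18 than in WT while *Fgf4* was higher. The median log2 ratio of these markers was −0.61, and that of *Dnmt3b* relative to this median was −0.39. FPKM of *Dnmt3b* divided by that of *Pou5f1*, which encodes OCT4, was 1.145 in WT, 1.02 in tw18/+ and 1.31 in tw18/tw18. *Dnmt3b* was thus not low beside *Pou5f1* in the tw18/tw18 library. *Pou5f1* is, however, 1 of the 4 lower markers, which all had log2 ratios below that of *Dnmt3b*. The remaining epiblast markers all had higher log2 ratios than *Dnmt3b*. In such bulk libraries fewer cells of a type and less RNA per cell cannot be told apart.

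The genes whose 3 values followed those of *Dnmt3b* most closely were found by the distance between log2(FPKM + 1) values, centred per gene, over 3 libraries and 7048 genes with FPKM of at least 10 in at least 1 of them. They were *Mycn*, *Acy1*, *Snrpa1*, *Mis12* and *Prpsap2*, at distances of 0.0134 to 0.0262. *Mycn*, which encodes a MYC family transcription factor, had FPKM of 56.3, 58.0 and 28.0 in WT, tw18/+ and tw18/tw18, and *Snrpa1*, which encodes a spliceosome protein, had 96.4, 97.3 and 48.2. With 3 points per gene many profiles look alike, and 50 genes lay within a distance of 0.1.

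*Dnmt3a* encodes the second de novo enzyme. Its FPKM was 35.1 in WT and 24.2 in tw18/tw18, and it was listed at 0 in tw18/+. The log2 ratio of tw18/tw18 to WT was −0.54 (−0.61 to −0.46), short of the threshold, and relative to the epiblast marker median it was 0.08. Among 5582 genes with FPKM of at least 10 in both other libraries, *Dnmt3a* was the 1 gene listed at 0 in tw18/+. The WT library had 1 such gene of 5584 and the tw18/tw18 library 2 of 5739, so a 0 of this kind was rare. An exact 0 can be a failed estimate of the quantification program, and no fold was formed with it. *Dnmt3a*, at chr12:3806007-3914443 on the plus strand, has 18 annotated transcripts, the most of the 10 genes, and overlaps *Dnmt3aos* on the opposite strand, which is not a row of the table.

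*Dnmt3l* encodes the cofactor that stimulates DNMT3A and DNMT3B without being an enzyme itself. Its FPKM was 7.46 in WT, 5.03 in tw18/+ and 9.34 in tw18/tw18, from an estimated 109, 106 and 192 fragments, the fewest of the 10 genes apart from the *Dnmt3a* value of 0. The lowest value was that of tw18/+ and the highest that of tw18/tw18. The log2 ratio was 0.32 (−0.02 to 0.67) for tw18/tw18 to WT, −0.57 (−0.97 to −0.17) for tw18/+ to WT and 0.89 (0.54 to 1.25) for tw18/tw18 to tw18/+. The first interval includes 0, and the last includes the threshold. *Dnmt3l*, at chr10:78041947-78063622 on the plus strand, overlaps *Aire* on the opposite strand, whose FPKM was 0 in WT, 0.780 in tw18/+ and 0.157 in tw18/tw18.

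The balance within the DNMT family moved with *Dnmt3b*. Leaving out *Dnmt3a* because of its value of 0, the summed FPKM of *Dnmt1*, *Dnmt3b* and *Dnmt3l* was 787.5 in WT, 798.5 in tw18/+ and 423 in tw18/tw18. *Dnmt3b* made up 91.3%, 91.7% and 85.0% of these sums and *Dnmt1* 7.74%, 7.63% and 12.8%. There were 11.8 *Dnmt3b* FPKM for each of *Dnmt1* in WT, 12.0 in tw18/+ and 6.62 in tw18/tw18. The ratio of *Dnmt3b* to *Dnmt3a* was 20.5 in WT and 14.9 in tw18/tw18. Ratios within a library do not depend on how the libraries were scaled.

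The maintenance genes differed from each other. *Uhrf1*, whose protein binds hemimethylated CpG, had FPKM of 117 in WT, 114.5 in tw18/+ and 70.6 in tw18/tw18. Its log2 ratio of tw18/tw18 to WT was −0.72 (−0.78 to −0.67), below 0 but short of the threshold and the next value outside it after *Dnmt3b*. *Dnmt1*, which encodes the maintenance enzyme, had FPKM of 61.0, 60.9 and 54.3 in the same order and a log2 ratio of −0.17 (−0.22 to −0.11) for tw18/tw18 to WT, and its sign turned when the libraries were scaled to equal FPKM sums. FPKM of *Uhrf1* was 1.91 times that of *Dnmt1* in WT, 1.88 times in tw18/+ and 1.30 times in tw18/tw18. Relative to the epiblast marker median the log2 ratio of tw18/tw18 to WT was −0.11 for *Uhrf1* and 0.45 for *Dnmt1*.

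Most proliferation markers had higher log2 ratios of tw18/tw18 to WT than *Uhrf1*, and only *Mcm3* and *Pcna* were below it. The summed FPKM of 12 proliferation markers was 1494 in WT, 1533 in tw18/+ and 1177 in tw18/tw18, none passed the threshold, and their log2 ratios of tw18/tw18 to WT ran from −0.83 for *Mcm3* to 0.42 for *Rrm2*, with a median of −0.45. FPKM of *Uhrf1* divided by that of *Pcna*, the replication clamp, was 0.347, 0.316 and 0.368 in WT, tw18/+ and tw18/tw18. *Uhrf1*, at chr17:56303321-56323486 on the plus strand, lies on the chromosome that carries the deletion but outside the interval that the study mapped as deleted. *Uhrf1* was not tested for a place in the wider variant region of the t haplotype. Of its transcript sequence 17.9% in 50-base words is shared with *Gm15953* and *Gm5648*, which are not rows of the table. *Dnmt1* lies at chr9:20907209-20959888 on the minus strand and shares no such word with another gene.

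*Tet2* had the largest ratio of the 10 genes. Its FPKM was 1.89 in WT, 1.97 in tw18/+ and 6.84 in tw18/tw18, from an estimated 242, 364 and 1235 fragments. WT and tw18/+ were level and tw18/tw18 stood above both. The log2 ratio of tw18/tw18 to WT was 1.86 (1.66 to 2.06), 3.63-fold higher, and that to tw18/+ was 1.80 (1.63 to 1.97), whereas tw18/+ to WT was 0.06 (−0.18 to 0.30). The call ended in both pairs where the higher value had to be at least 10, since *Tet2* is below that in every library. Of all genes compared, 94.9% had a lower log2 ratio of tw18/tw18 to WT. *Tet2*, at chr3:133463679-133545139 on the minus strand, shares no 50-base word with another gene and overlaps *Gm42567* on the opposite strand, which is not a row of the table.

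*Tet1*, the main TET gene of pluripotent cells, had FPKM of 27.6 in WT, 29.5 in tw18/+ and 23.0 in tw18/tw18. Its log2 ratio of tw18/tw18 to WT was −0.27 (−0.32 to −0.21), and relative to the epiblast marker median it was 0.35. *Tet3*, which encodes the TET enzyme of the oocyte and zygote and is widely expressed later, had FPKM of 7.82, 7.75 and 7.34, with a log2 ratio of −0.09 (−0.20 to 0.02) for tw18/tw18 to WT, and its sign turned when the libraries were scaled to equal FPKM sums. *Tet3* varied least in FPKM of the 3 TET genes. *Tet1* lies at chr10:62804570-62908996 and *Tet3* at chr6:83362373-83459084, both on the minus strand.

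The summed FPKM of the TET genes was close in the 3 libraries, at 37.3 in WT, 39.2 in tw18/+ and 37.2 in tw18/tw18, but its makeup was not. *Tet2* contributed 5.05% in WT, 5.02% in tw18/+ and 18.4% in tw18/tw18, and *Tet1* contributed 74.0%, 75.2% and 61.8%. *Tet3* stayed at 20.9%, 19.8% and 19.8%. FPKM of *Tet1* was 14.7 times that of *Tet2* in WT, 15.0 times in tw18/+ and 3.36 times in tw18/tw18, and FPKM of *Tet3* was 4.15, 3.94 and 1.07 times that of *Tet2*. *Tet2* thus went from far below *Tet3* to its level.

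**Figure D3:**
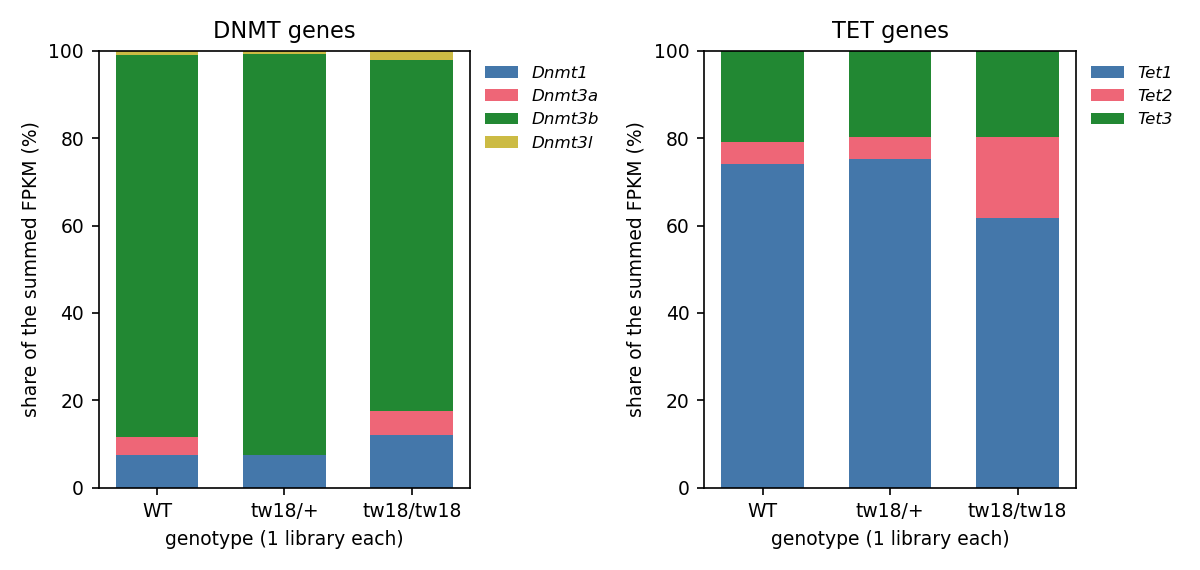
Share of the summed FPKM of the DNMT genes (left) and TET genes (right) held by each gene in the WT, tw18/+ and tw18/tw18 libraries, as stacked bars in percent. *Tet2* holds 5.05%, 5.02% and 18.4% of the TET sum, and *Dnmt3a* has no segment in tw18/+ because it is listed at 0 there.

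Many markers of tissues outside the epiblast were higher in the tw18/tw18 library, in which *Tet2* and *Zfp57* were highest. Most of the tissue sums were lower in tw18/+ than in WT, but some sums rested on 1 gene. Median log2 ratios of tw18/+ to WT were 0.63 for decidua, 0.23 for parietal endoderm, −0.34 for extra-embryonic ectoderm and −0.85 for endothelium. In tw18/tw18 against WT, 7 of 8 extra-embryonic ectoderm markers with a ratio were higher and 1 lower, and 6 of 7 of parietal endoderm were higher. Of decidua, 8 of 9 were higher and 1 lower, and of endothelium 5 of 8 were higher. Over all genes 13.8% were higher and 6.42% lower. The study reads *Hand2* of the decidua list, *Eng* of the endothelium list and *Hand1* of the giant cell list as mesoderm genes. Summed FPKM in WT, tw18/+ and tw18/tw18 was 94.3, 74.3 and 96.7 for extra-embryonic ectoderm, 330, 375 and 752 for parietal endoderm, 1569, 218 and 626 for decidua and 42.1, 26.7 and 93.2 for endothelium. The decidual sum rested on *Prl8a2*, a prolactin family hormone of the decidua, with 1504, 155 and 377, and the other 8 markers summed to 65.2, 62.7 and 248. The extra-embryonic ectoderm sum rested on *Eomes*, which is also expressed in the primitive streak, with 77.1, 58.0 and 37.0, and the other 8 summed to 17.2, 16.3 and 59.7. Immune markers summed to 24.0, 15.1 and 46.4, with 2 of 5 higher, erythroid markers to 52.5, 56.3 and 177, with 3 of 4 higher and 1 lower, and giant cell markers to 133, 89.8 and 247, with 1 of 4 higher and 1 lower. Among erythroid markers the near-identical copies *Hba-a1* (52.2, 27.1 and 0.00700) and *Hba-a2* (0.0201, 26.9 and 127) could exchange reads, so their opposite calls are uncertain. *Prl3b1* and *Ctsq* of giant cells and *Hbb-y*, *Hbb-bh1* and *Hba-x* of primitive erythroid cells were at 0 in every library. Visceral endoderm markers summed to 948, 929 and 1238, and 0 of 13 passed the threshold, with a median log2 ratio of 0.41. The part of these cells in the values of *Tet2* and *Zfp57* was not tested.

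*Tdg* had FPKM of 33.1 in WT, 35.6 in tw18/+ and 32.3 in tw18/tw18. The log2 ratio was −0.04 (−0.14 to 0.06) for tw18/tw18 to WT and 0.10 (0.005 to 0.20) for tw18/+ to WT. The sign of the first turned after scaling to equal FPKM sums. It also turned after centring on the median of genes with FPKM of at least 1 in all libraries. *Tdg*, at chr10:82629828-82650799 on the plus strand, is uncertain as a level, because 52.9% of its transcript sequence in 50-base words also occurs in near-identical copies: *Tdg-ps*, *Gm5597*, *Gm9855* and *AC122846.1*. Of these only *Gm9855* is a row of the table, and its FPKM was 39.3 in WT, 32.9 in tw18/+ and 22.6 in tw18/tw18, above *Tdg* in WT and below it in the other libraries. How reads were divided between the copies is not stated.

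*Zfp57* was the 1 gene of the 10 whose tw18/+ value lay between the others with separate counting intervals on both sides. The share of all genes with such a pattern was not counted. *Zfp57* had FPKM of 8.99 in WT, 15.8 in tw18/+ and 21.5 in tw18/tw18, from an estimated 213, 542 and 716 fragments. The steps were 6.84 FPKM from WT to tw18/+ and 5.63 from tw18/+ to tw18/tw18. The log2 ratio was 1.26 (1.03 to 1.48) for tw18/tw18 to WT, 2.39-fold higher, 0.82 (0.59 to 1.05) for tw18/+ to WT and 0.44 (0.27 to 0.60) for tw18/tw18 to tw18/+. The middle value missed the threshold of 1 by the rule, although its interval includes it, and 94.4% of all genes had a lower log2 ratio of tw18/+ to WT. *Zfp57*, at chr17:37001163-37010635 on the plus strand, lies on the chromosome of the deletion but outside the interval that the study mapped as deleted. *Ppp2r1a*, at chr17:20945311-20965916, lies within that interval. By the study the variant region of t haplotypes is much larger than this deletion. Whether *Zfp57* lies in the variant part that tw18 carries was not tested. The order of the libraries in *Zfp57* was the reverse of that in *Ppp2r1a*. With 3 libraries such an order can arise by chance, and a link between these genes was not tested. *Trim28*, which encodes the corepressor of ZFP57, had FPKM of 316, 327 and 219, and its FPKM was 35.1 times that of *Zfp57* in WT, 20.7 times in tw18/+ and 10.2 times in tw18/tw18.

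The other genes of the pathway were read as 7 lists of partners and targets. Over these lists 7 of 100 genes with a ratio were higher in tw18/tw18 than in WT and 4 lower, fewer in share than the 13.8% and 6.42% of all genes. Among maintenance and recruitment partners, 0 of 18 genes with a ratio were higher in tw18/tw18 than in WT and 1 lower, with a median log2 ratio of −0.34 beside −0.02 for all genes. The lower gene was *Cdca7*, the partner of the chromatin remodeler HELLS in DNA methylation, with FPKM of 96.3 in WT, 88.9 in tw18/+ and 36.6 in tw18/tw18. Among base excision repair and other demethylation factors, 1 of 17 was higher and 2 were lower, with a median of −0.37. *Gadd45b*, a stress-inducible gene linked to active demethylation, had FPKM of 4.12, 5.49 and 11.3, *Apobec2*, of the cytidine deaminase family, had 5.17, 4.05 and 2.10, and *Neil2*, a DNA glycosylase, had 1.29, 0.461 and 0.218.

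The list of methyl-CpG binding proteins, whose members are not all established readers of the mark, had the highest median of the 7 lists at 0.49. Of 9 genes, 3 were higher in tw18/tw18 than in WT and 0 lower, beside 13.8% and 6.42% of all genes. Among the higher genes, *Mbd2* had FPKM of 6.93 in WT, 7.65 in tw18/+ and 15.0 in tw18/tw18, and *Zbtb4* had 0.472, 0.749 and 2.55. *Mbd2* was near its WT level in tw18/+ and high in tw18/tw18, whereas *Zbtb4* was already above WT in tw18/+, with a log2 ratio of 0.67 at a low level. *Mbd3*, a subunit of the NuRD complex that binds methylated CpG weakly at most, was the most abundant of the list with 62.9, 67.6 and 48.4.

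Genes of methyl donor supply had 0 of 15 past the threshold and a median of −0.25. Their most abundant members were *Ahcy*, which removes S-adenosylhomocysteine, the inhibitory product of methyl transfer, with FPKM of 239.8 in WT, 242.8 in tw18/+ and 126.5 in tw18/tw18, and *Mat2a*, which makes S-adenosylmethionine, with 167, 180 and 118. Among TET partners and genes of 2-oxoglutarate supply, 0 of 13 were higher and 1 lower, with a median of −0.08. The lower gene was *Cxxc5*, which encodes a CpG-binding protein linked to TET2, with FPKM of 42.4, 31.5 and 16.9. Partners of ZFP57 and other imprint genes had 0 of 12 past the threshold and a median of −0.25, with *Trim28* (above) and *Cbx3*, a heterochromatin protein, at 172, 182 and 135.

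**Figure D4:**
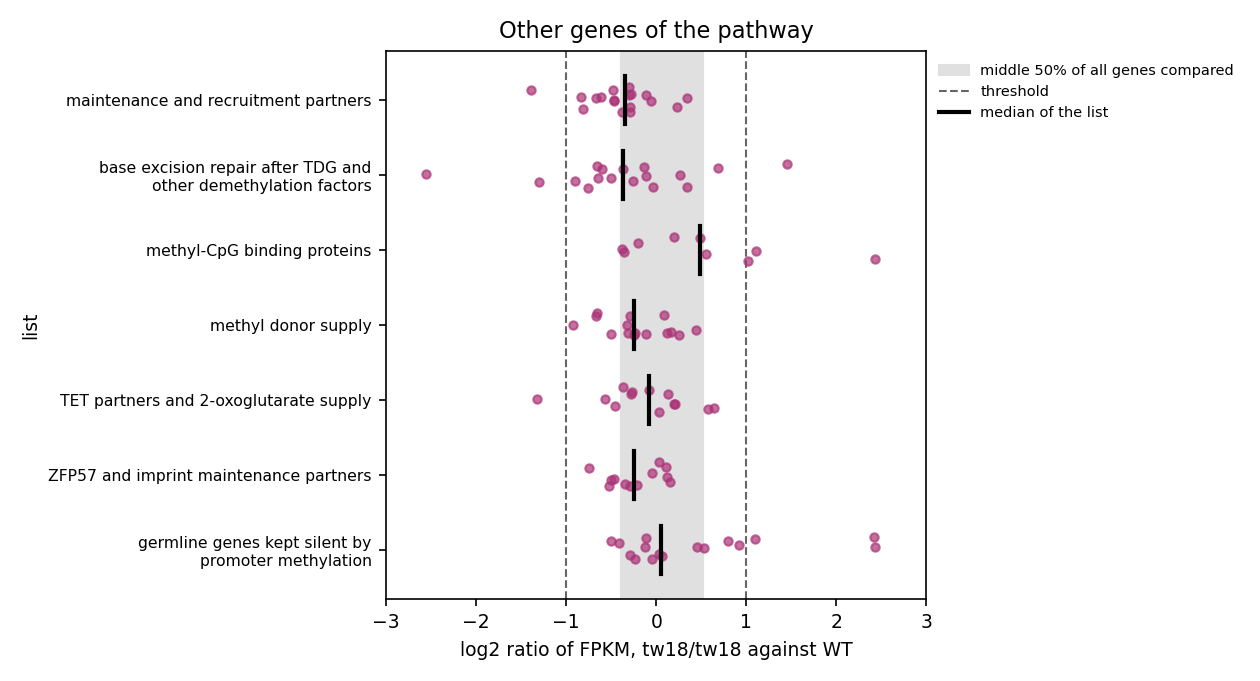
Log2 ratio of FPKM in tw18/tw18 against WT for each gene (points) of 7 lists around the 10 genes, with the list median as a black bar, the threshold of 1 dashed and the middle 50% of all genes in grey. The median of methyl-CpG binding proteins, 0.49, is the highest, and those of maintenance partners, −0.34, and base excision repair, −0.37, are the lowest.

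Germline genes listed as silenced by promoter methylation after implantation were not all silent here. Their median FPKM was 1.58 in WT, 1.82 in tw18/+ and 1.45 in tw18/tw18. Of 24 such genes, 14 in WT, 13 in tw18/+ and 16 in tw18/tw18 had FPKM of at least 1. Over all 23421 genes, 11859, 11879 and 12402 did so in the same order. The highest of the list was *Sycp3*, a gene of the meiotic chromosome axis, at 9.04 in WT and 9.48 in tw18/+, and *Tex19.1* at 22.7 in tw18/tw18. Of 16 with a ratio, 3 were higher in tw18/tw18 than in WT and 0 lower, 18.8% beside 13.8% of all genes, and the median log2 ratio was 0.05. *Tex19.1* had FPKM of 4.21 in WT, 5.01 in tw18/+ and 22.7 in tw18/tw18 and is also a marker of extra-embryonic ectoderm. *Zfp42*, which encodes the pluripotency factor REX1, had 3.46, 3.69 and 7.41, and *Rpl10l*, a copy of a ribosomal protein gene that can share reads with its parent, had 1.77, 5.42 and 9.43. *Sycp3* had 8.27 in tw18/tw18.

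Between tw18/+ and WT, 2 of the 97 list genes with a ratio were higher and 4 lower, 2.06% and 4.12% beside 4.0% and 4.66% of all genes. *Nthl1* and *Rpl10l* were higher and *Neil2*, *Mbd1*, *Gnmt* and *Ooep* were lower in tw18/+. *Mbd1*, a methyl-CpG binding repressor, had FPKM of 7.32 in WT, 2.99 in tw18/+ and 8.37 in tw18/tw18, and *Nthl1*, a DNA glycosylase, had 4.36, 10.5 and 5.51, so that the tw18/+ library stood apart from both others. The median log2 ratio of the 9 enzymes and partners with a ratio was 0.03 beside 0.00 for all genes. Of the 10 genes, *Dnmt3a*, *Dnmt3l* and *Zfp57* were those in which tw18/+ departed from WT by more than the middle 50% of all genes (−0.23 to 0.22) or had no ratio.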

How the data were processed

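The authors made 1 strand-specific library of rRNA-depleted total RNA per genotype, with 14 cycles of PCR and 50-base paired-end reads. Per the labels, processing named TopHat2 2, Bowtie 1.0.0, Cufflinks 2.2.1 and Cuffdiff with mouse build mm10 (GRCm38). The annotation and the library normalization used by the authors are not given in the sources used here. The deposited table holds FPKM for 23421 genes in 3 libraries and no read counts.

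From these values log2 ratios were formed without a pseudocount. A gene was called past the threshold when the log2 ratio was at least 1 in either direction and the higher FPKM at least 1. Genes listed at 0 in either library of a pair had no ratio and were left out of that pair. With 1 library per genotype no test was run, and the ratios have no replicate check. Because the files give no counts, the FPKM worth of 1 fragment was estimated in each library from the lowest 150 values of single-transcript genes of GENCODE M21, of which 79.3 to 82.7% fell within 0.2 of a whole number of fragments. Fragments of each gene followed from its shortest RefSeq-matched transcript less 100 bases. Exact Poisson intervals were given to levels and exact binomial intervals to ratios, at 95%. PCR copies are not independent molecules, so these intervals cover counting error only. The step estimate and the calling were run on simulated data with little noise and planted changes well past the threshold. This checked the code only, and not calls near the threshold such as that of *Dnmt3b*. Shared sequence was counted as 50-base words of GENCODE transcripts. Positions are from GENCODE and promoters from RefSeq (GRCm38.p6). Python 3.11.15, numpy 2.4.6, pandas 2.3.3, scipy 1.17.1 and matplotlib 3.10.9 were used.

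The 10 genes, the pathway lists and the marker lists were chosen with earlier results of these data known. Genes to be named were all 10 members, the list genes past the threshold in tw18/tw18 against WT or else the 2 most abundant in WT, the 3 most abundant markers of each tissue, *Ppp2r1a* and the 5 genes nearest to *Dnmt3b*. The rule for markers was not followed throughout, and markers of several tissues are given only as sums and counts. *Mbd3*, *Mbd1*, *Mcm3*, *Rrm2*, *Sycp3*, *Nthl1*, *Gnmt*, *Ooep*, *Tex19.1* as the highest germline gene, the markers at 0 in every library (*Prl3b1*, *Ctsq*, *Hbb-y*, *Hbb-bh1* and *Hba-x*), the other epiblast markers and the neighbours of *Zfp57* were named after their values were seen. *Nsd2*, *Dcaf1* and *Hbb-bt* of the lists were not found by symbol. The values of 1 gene of the methyl-CpG binding list are counted but not reported here. Alternatives were pseudocounts of 0.1 and 1, other FPKM minimums, a lower threshold, 3 rescalings of the libraries and values relative to the epiblast markers. Counting genes listed at 0 was added after the data were seen.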

Additional observations from a re-analysis of the deposited data

How the results depend on the processing

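Between tw18/tw18 and WT, 2 to 4 of the 10 genes passed the threshold under the alternatives, beside 3. *Tet2* (log2 ratio 1.44 to 2.47) and *Zfp57* (1.17 to 1.87) passed in all 6 alternatives that move a ratio, and *Dnmt3b* (−1.0003 to −0.39) passed in 1 of them, with a pseudocount of 0.1. With a higher value of at least 10, *Dnmt3b* and *Zfp57* passed and *Tet2* did not. The number of all genes past the threshold in this pair, 2550, became 1467 with a pseudocount of 1, 697 with a higher value of at least 10, and 4894 at a threshold of 1.5-fold. Between tw18/+ and WT, 1063 genes became 406 with a pseudocount of 1, 2163 with no filter on low values, 97 with a higher value of at least 10, and 2353 at 1.5-fold. Of the 10 genes, 0 passed in this pair, which became 1 (*Zfp57*) at 1.5-fold and 1 (*Dnmt3a*) when a value listed at 0 was counted, a choice made after the data were seen. Between tw18/tw18 and tw18/+, 2493 genes became 1411, 3815, 677 and 4933 under the same 4 settings in that order, and the 2 of the 10 genes became 1 (*Dnmt3b*) with a higher value of at least 10, 4 (*Dnmt3b*, *Dnmt3l*, *Uhrf1* and *Tet2*) at 1.5-fold, and 1 (*Tet2*) after centring on the median gene. Scaled to equal FPKM sums, this pair gave *Dnmt3l* and *Tet2*, and relative to the epiblast markers also *Zfp57* (log2 ratio 1.147). The cause of these changes was not tested beyond the construction of each setting. Scaling to equal FPKM sums added 0.21 to each log2 ratio of tw18/tw18 to WT, and to equal sums without the most abundant genes 0.16. Centring used the median of the 11069 genes with FPKM of at least 1 in all libraries and added 0.05. No paired analysis was possible because the labels give no replicate numbers and each genotype has 1 library. The spread between embryos of a genotype cannot be seen in these data, and an estimated 109 and 106 fragments limit *Dnmt3l* most.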

Other observations

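Genes around *Zfp57* on chromosome 17 gave mixed values. Of 40 genes within 500 kb, 6 had a ratio of tw18/tw18 to WT, of which 2 were higher and 1 lower, with a median log2 ratio of 0.10. *Trim26*, which encodes a tripartite motif protein, had FPKM of 9.77 in WT, 14.1 in tw18/+ and 19.7 in tw18/tw18, the same order of libraries as *Zfp57*, and was singled out after its values were seen. *Gabbr1*, which encodes a GABA receptor subunit, had 2.97, 2.87 and 7.36, with tw18/tw18 alone high, and *Rnf39*, which encodes a ring finger protein, had 1.40, 0.430 and 0.649. Around *Uhrf1*, 29 of 39 genes within 500 kb had a ratio, 3 were higher and 1 lower, and the median was −0.08.

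*Lars2*, a mitochondrial leucyl-tRNA synthetase, had FPKM of 11200 in WT and 9689 in tw18/+ and was listed at 0 in tw18/tw18, the same kind of value as that of *Dnmt3a* in tw18/+.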
